A study of Mus musculus with 6 samples.

Results

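The antiviral interferon-stimulated effector genes are 40 genes whose products act on viral or foreign nucleic acids, on protein synthesis, on membranes or in nuclear bodies. They were taken by gene name from a table of raw read counts for 54532 genes, and all 40 were found in it. The samples were abdominal aorta of mice at day 7 after an aneurysm, a local widening of the vessel, had been induced. Olfr2 knockout (KO) mice gave 3 libraries and wild type (WT) mice gave 3. Every library came from aneurysm tissue, so both genotypes shared the induction and no uninjured aorta was compared. No source used here gives the strain, the age of the mice, the cells in which Olfr2 was removed, the means of induction or any pooling of animals. The p-values below therefore measure the spread between these libraries, which may be technical.

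Type I interferons are secreted when a cell senses nucleic acids of a virus, or its own nucleic acids in the wrong place. They bind a receptor on nearby cells, where Janus kinases switch on transcription factors, among them Stat2 with Irf9, that bind a short DNA element in the promoters of interferon-stimulated genes. In injured arteries such genes are known to be active in macrophages, monocytes and other recruited leukocytes as well as in cells of the wall. Olfr2 belongs to the odorant receptors, which signal through G proteins, and setting KO against WT addresses how its loss bears on transcripts of the widened vessel.

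Library totals lay between 17248918 and 21872027 counts. Olfr2 had 0 counts in all 6 libraries, which allows up to 0.174 CPM, that is read counts scaled to a common library total, by 3 counts in the smallest library, so its level does not check the genotype labels. Genotypes were compared by the quasi-likelihood test of edgeR on 16237 genes, over all of which p-values were adjusted by the Benjamini-Hochberg method. All 40 members passed the filter on low counts. The log2 fold changes are KO over WT, and an adjusted p under 0.05 was the threshold. KO replicate 3 stood apart in skeletal muscle transcripts, with 1026 CPM summed over 8 markers, where every other library had at most 16.03 CPM. Markers of smooth muscle and of leukocytes were present in all 6 libraries.

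Mean levels of nearly all the antiviral transcripts were lower in KO aneurysms. The KO mean was below the WT mean for 39 of the 40 members, beside 48.8% of all tested genes, and above it for 1, Ifi27. The median log2 fold change of the members was -0.84, beside 0.01 over all tested genes. No member passed the threshold in edgeR, where 0.0123% of all genes did, and the adjusted p-values of the members lay between 0.102 and 0.336. At an unadjusted p under 0.05 there were 39 members lower, beside 6.08% of all tested genes, and 1 higher, beside 5.23%. The KO libraries all lay below the WT libraries for 33 members, beside 9.01% of all tested genes, and above them for 1, beside 7.83%. The call depended on the method. DESeq2 called 35 members lower, where it called 1.93% of all genes lower, and Ifi27 higher, where it called 1.13% higher. Limma-voom called 0, with 39 lower at an unadjusted p under 0.05, beside 6.08% of all genes. EdgeR with no filter on low counts called 35 lower, beside 1.02% of all genes, and Ifi27 higher, beside 1.16%. In bulk tissue, fewer cells of a type and less RNA per cell cannot be told apart.

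The members shared a pattern over the libraries. Their summed level was 5652, 6251 and 7535 CPM in KO replicates 1 to 3, against 11000, 13210 and 8595 CPM in WT replicates 1 to 3. WT replicate 2 was the highest library for 30 members and WT replicate 1 for 9. KO replicate 1 was the lowest library for 28 members. WT replicate 3 lay closest to the KO libraries and was the lowest WT library for 36 of the 40. KO replicate 3, the library with the skeletal muscle transcripts, was the highest KO library for 32 of the 40. Without WT replicate 3 edgeR called 21 members lower, beside 0.48% of all genes, and Ifi27 higher, beside 0.45%. The median of the members was then -0.97. With any other library left out it called 0.

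**Figure D1:**
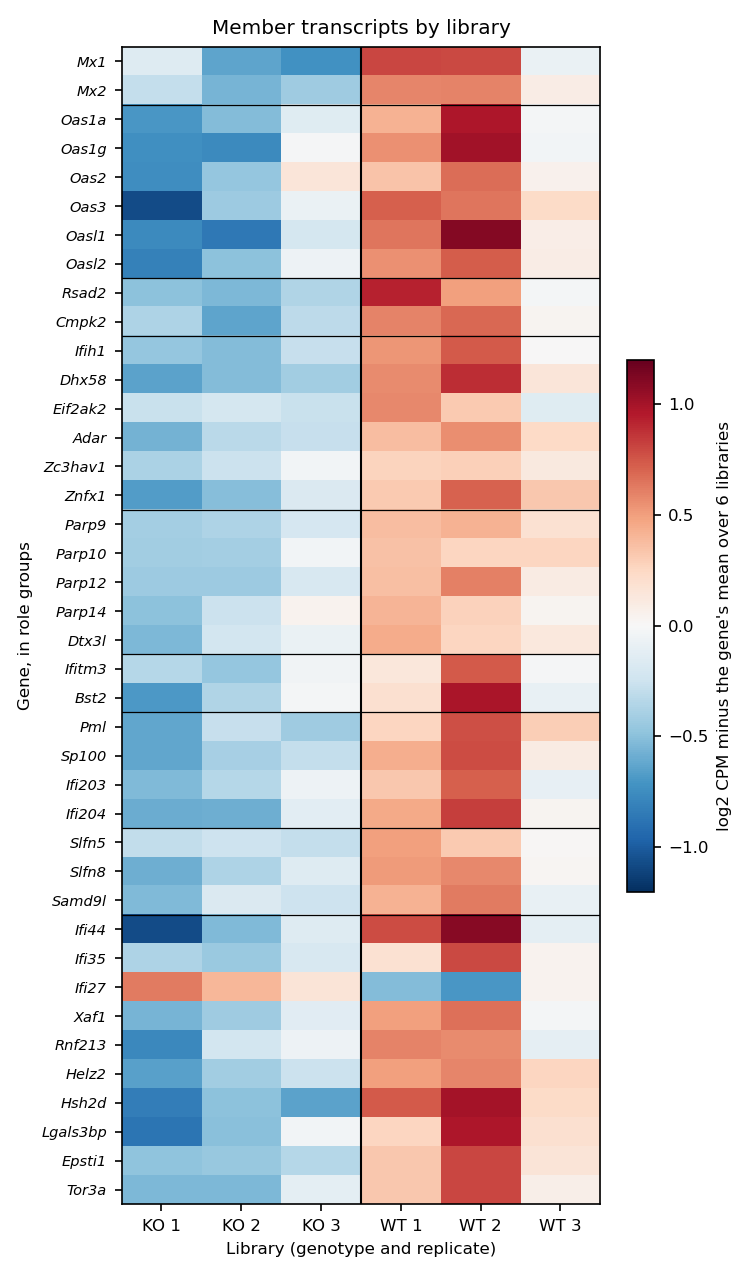
Each row is a member and each column a library, KO left of WT, and the colour is log2 CPM minus the gene's mean over the 6 libraries. Nearly every row is blue in KO replicates 1 and 2 and red in WT replicates 1 and 2. KO replicate 3 and WT replicate 3 are paler, and the row of Ifi27 runs the other way.

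The element that Stat2 and Irf9 act through, the interferon-stimulated response element, was searched for by its core, GAAA, any 2 bases and again GAAA, on both strands. The windows were RefSeq promoters on GRCm38.p6, from 250 bases before to 50 bases after each gene's start, which were held for 30 members. Of these 30, 11 had the core, a share of 36.7%, and among all 27025 genes with a promoter the share was 3.99%. Mx1, Mx2, Oas2, Dhx58, Parp9, Parp10, Parp14, Ifi204, Ifi27 and Tor3a had no entry. The gamma-activated site TTCNNNGAA, known from genes that interferon gamma induces, which reads alike on both strands, was in 6 of 30, a share of 20%, beside 9.55% of all genes. The 2 motifs overlapped in 2 members. The 11 members with the core had a median log2 fold change of -0.77, with a range of -1.03 to -0.53, and the 19 without it of -0.89, with a range of -1.33 to -0.44. A match in these letters is a description and not a measured site.

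The stretches before the RefSeq start that hold the core are shown for members where it lies wholly upstream of that start. They run 5′ to 3′ along the gene's own strand, with the core in capitals. They are chr5:120907526-120907585 for Oas1a, chr5:120887614-120887671 for Oas1g, chr5:120777685-120777774 for Oas3, chr12:26456523-26456612 for Rsad2, chr8:71537547-71537642 for Bst2, chr1:173942493-173942567 for Ifi203 and chr11:83020811-83020898 for Slfn8, all on the minus strand of GRCm38.p6, and chr11:82951907-82951996 for Slfn5 on the plus strand.
Oas1a: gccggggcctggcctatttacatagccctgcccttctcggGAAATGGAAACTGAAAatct
Oas1g: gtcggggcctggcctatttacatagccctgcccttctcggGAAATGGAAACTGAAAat
Oas3: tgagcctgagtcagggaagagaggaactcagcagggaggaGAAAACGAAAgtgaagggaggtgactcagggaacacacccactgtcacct
Rsad2: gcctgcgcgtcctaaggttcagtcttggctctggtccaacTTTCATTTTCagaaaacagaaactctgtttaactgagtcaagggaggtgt
Bst2: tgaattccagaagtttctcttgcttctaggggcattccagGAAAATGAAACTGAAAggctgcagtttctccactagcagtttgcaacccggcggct
Ifi203: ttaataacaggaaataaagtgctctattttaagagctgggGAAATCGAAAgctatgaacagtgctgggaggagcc
Slfn5: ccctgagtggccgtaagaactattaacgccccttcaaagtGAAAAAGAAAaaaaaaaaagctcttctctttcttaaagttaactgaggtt
Slfn8: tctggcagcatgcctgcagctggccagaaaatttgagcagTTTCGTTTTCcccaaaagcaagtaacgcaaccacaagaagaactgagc
Oas1a, Oas1g and Bst2 each hold 2 overlapping cores in 1 run. In Rsad2 and Slfn8 the core lies on the opposite strand and so reads as its reverse complement. Counted from the start, the first base of the match is at -20 in Oas1a, -18 in Oas1g, -75 in Oas3, -120 in Rsad2, -130 in Bst2, -35 in Ifi203, -155 in Slfn5 and -48 in Slfn8 (for Slfn8, from the more upstream of its starts in the table). In Ifih1, Eif2ak2 and Ifitm3 it lies after the start. All these starts are those of RefSeq. In GENCODE, which gave the gene positions below, Slfn5 and Ifi203 start further upstream, so their stretches lie inside the GENCODE genes.

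The Mx genes encode dynamin-like GTPases that block viral replication, and many inbred mouse strains carry broken copies. Mx1 (ENSMUSG00000000386, chr16:97447035-97462907, minus strand) stood at 142, 102 and 95.1 CPM in KO replicates 1 to 3, against 275, 274 and 149 CPM in WT replicates 1 to 3. Its highest KO library, replicate 1, lay just under its lowest WT library, replicate 3, and its log2 fold change was -1.04 (SE 0.25, edgeR adjusted p = 0.157). Mx2 (ENSMUSG00000023341, chr16:97535308-97560900, plus strand) stood at 30.3, 25 and 27.5 CPM in KO replicates 1 to 3, against 55.4, 55.6 and 39.1 CPM in WT replicates 1 to 3. The annotation lists Mx2 as a polymorphic pseudogene, and its groups did not overlap, with a log2 fold change of -0.86 (SE 0.16, edgeR adjusted p = 0.103).

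The OAS enzymes make oligoadenylates from ATP when they bind double-stranded RNA, and these signal for the breakdown of RNA. For all 6 genes of the family the KO mean was below the WT mean, and 0 passed in edgeR. Oasl1, which in mice restrains translation of Irf7 and lacks the enzyme activity, had the largest difference of the family. Oasl1 (ENSMUSG00000041827, chr5:114923240-114937915, plus strand) stood at 64.1, 60 and 93.8 CPM in KO replicates 1 to 3, against 169, 233 and 115 CPM in WT replicates 1 to 3. All KO libraries lay below all WT libraries, and the log2 fold change was -1.25 (SE 0.26, edgeR adjusted p = 0.131). Oas3 (ENSMUSG00000032661, chr5:120753098-120777661, minus strand) stood at 63.3, 98.3 and 126 CPM in KO replicates 1 to 3, against 219, 207 and 156 CPM in WT replicates 1 to 3. There was again no overlap, with a log2 fold change of -1.02 (SE 0.24, edgeR adjusted p = 0.153). Oasl2 (ENSMUSG00000029561, chr5:114896936-114912234, plus strand), with the highest CPM of the family, not scaled to length, stood at 235, 294 and 396 CPM in KO replicates 1 to 3, against 603, 681 and 440 CPM in WT replicates 1 to 3. The groups did not overlap, and the log2 fold change was -0.90 (SE 0.22, edgeR adjusted p = 0.173). Oas1a had a log2 fold change of -0.95, Oas1g of -1.03 and Oas2 of -0.68. In Oas1g and Oas2 KO replicate 3 lay above WT replicate 3. Oas1a and Oas1g are close copies, with 57.6% of the 50-base windows of Oas1a transcripts also found in Oas1g, so the split of reads between them is uncertain.

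Viperin, encoded by Rsad2, turns CTP into a chain terminator of viral RNA synthesis, and Cmpk2, the neighbouring gene on the opposite strand, encodes a mitochondrial nucleotide kinase. Rsad2 (ENSMUSG00000020641, chr12:26442746-26456452, minus strand) stood at 138, 133 and 151 CPM in KO replicates 1 to 3, against 368, 272 and 190 CPM in WT replicates 1 to 3. The KO libraries were close to each other, the WT libraries were spread with replicate 1 on top, and the log2 fold change was -0.98 (SE 0.21, edgeR adjusted p = 0.137). Cmpk2 (ENSMUSG00000020638, chr12:26469204-26479837, plus strand) stood at 87.7, 73.5 and 91.6 CPM in KO replicates 1 to 3, against 172, 183 and 116 CPM in WT replicates 1 to 3. The groups did not overlap, and the log2 fold change was -0.90 (SE 0.18, edgeR adjusted p = 0.119). The genes lie 12751 bases apart.

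Of the 6 genes for proteins that bind double-stranded or viral RNA, all had KO libraries below all WT libraries, beside 9.01% of all tested genes. Of these 6, 0 passed in edgeR. Dhx58, which encodes LGP2, a regulator of the RNA sensors, had the largest difference of these. Dhx58 (ENSMUSG00000017830, chr11:100694884-100704271, minus strand) stood at 61.4, 66.8 and 71.9 CPM in KO replicates 1 to 3, against 142, 177 and 106 CPM in WT replicates 1 to 3. The highest KO library was far under the lowest WT library, and the log2 fold change was -1.08 (SE 0.18, edgeR adjusted p = 0.102). Adar, the enzyme that edits adenosine to inosine in double-stranded RNA, stood at 89.6, 106 and 110 CPM in KO replicates 1 to 3, against 172, 195 and 157 CPM in WT replicates 1 to 3 (ENSMUSG00000027951, chr3:89715022-89753446, plus strand). Its log2 fold change was -0.78 (SE 0.13, edgeR adjusted p = 0.102), and 16.8% of its exon bases overlap Chrnb2, so part of its count may belong there. Znfx1, a helicase that senses viral RNA, stood at 149, 167 and 210 CPM in KO replicates 1 to 3, against 296, 389 and 298 CPM in WT replicates 1 to 3 (ENSMUSG00000039501, chr2:167035793-167063015, minus strand). The groups did not overlap, and the log2 fold change was -0.90 (SE 0.17, edgeR adjusted p = 0.104). Ifih1, which encodes the RNA sensor MDA5, had a log2 fold change of -0.87, and Eif2ak2, the kinase PKR that halts translation, of -0.53, which was -0.35 without WT replicate 1. Zc3hav1, the zinc-finger antiviral protein that marks CpG-rich viral RNA for decay, had -0.44, the smallest difference among the 40 members.

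ADP-ribosyltransferases attach ADP-ribose to proteins, and Parp9 works in a complex with the ubiquitin ligase Dtx3l. This group had smaller differences, with a median log2 fold change of -0.56, and 0 of 5 passed in edgeR. Parp9 (ENSMUSG00000022906, chr16:35938470-35972605, plus strand) stood at 112, 115 and 129 CPM in KO replicates 1 to 3, against 192, 198 and 168 CPM in WT replicates 1 to 3. The groups did not overlap, and the log2 fold change was -0.65 (SE 0.12, edgeR adjusted p = 0.103). Parp12 (ENSMUSG00000038507, chr6:39086410-39118349, minus strand), which acts against several RNA viruses, stood at 134, 134 and 159 CPM in KO replicates 1 to 3, against 233, 276 and 194 CPM in WT replicates 1 to 3. It had a log2 fold change of -0.72 (SE 0.15, edgeR adjusted p = 0.131), without overlap. Parp10 (ENSMUSG00000063268, chr15:76231174-76243441, minus strand) stood at 82.6, 83.6 and 108 CPM in KO replicates 1 to 3, against 141, 132 and 132 CPM in WT replicates 1 to 3. The 3 WT libraries lay close to each other and above KO, and the log2 fold change was -0.56 (SE 0.13, edgeR adjusted p = 0.148). Dtx3l had a log2 fold change of -0.55 and Parp14 of -0.47, where KO replicate 3 lay just above WT replicate 3. Parp9 and Dtx3l lie head to head, and 9.4% of the exon bases of Parp9 overlap Dtx3l.

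**Figure D2:**
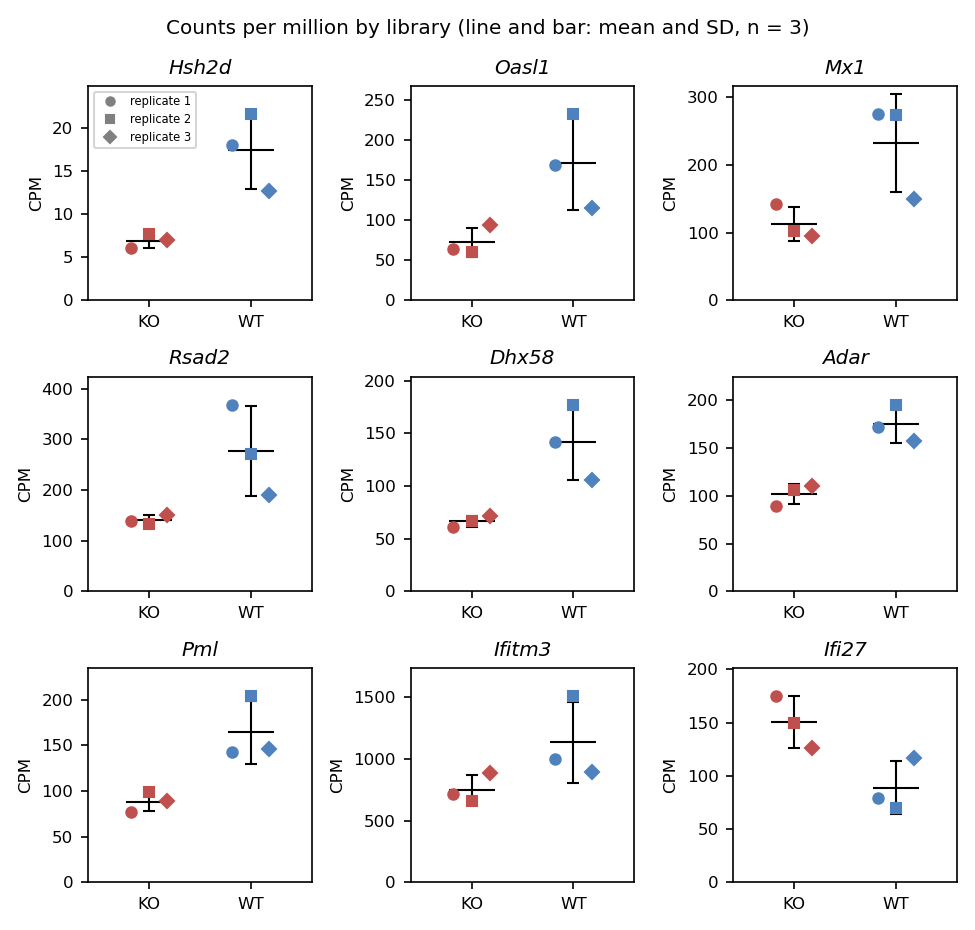
CPM of 9 members on the y axis, each panel from 0, with KO left of WT. Points are libraries, marked by replicate, and the line and bar are the mean and SD of 3 libraries. In 8 panels the KO points lie below the WT points, with WT replicate 3 the lowest WT point in all but Pml, and in the panel of Ifi27 the KO points lie above.

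Ifitm3 and Bst2 act at membranes, Ifitm3 by blocking fusion of viruses with endosomes and Bst2, tetherin, by holding budding virions at the cell surface. They had the largest p-values of the 40 and were the most abundant per length. Ifitm3 (ENSMUSG00000025492, chr7:141009586-141010770, minus strand) stood at 714, 656 and 884 CPM in KO replicates 1 to 3, against 998, 1510 and 896 CPM in WT replicates 1 to 3. KO replicate 3 lay just under WT replicate 3, and the log2 fold change was -0.60 (SE 0.22, edgeR adjusted p = 0.336). Bst2 (ENSMUSG00000046718, chr8:71534255-71537456, minus strand) stood at 200, 251 and 317 CPM in KO replicates 1 to 3, against 369, 636 and 304 CPM in WT replicates 1 to 3. The groups overlapped, since KO replicate 3 was above WT replicate 3, and the log2 fold change was -0.77 (SE 0.27, edgeR adjusted p = 0.327). Without WT replicate 2, the highest library for both, the log2 fold change was -0.34 for Ifitm3 and -0.39 for Bst2.

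Pml and Sp100 form nuclear bodies that silence incoming viral DNA, and Ifi203 and Ifi204 belong to the p200 family, of which Ifi204 senses DNA. Pml (ENSMUSG00000036986, chr9:58218076-58249786, minus strand) stood at 77.5, 98.5 and 88.7 CPM in KO replicates 1 to 3, against 143, 204 and 146 CPM in WT replicates 1 to 3. All KO libraries were far below all WT libraries, with WT replicate 2 on top, and the log2 fold change was -0.90 (SE 0.16, edgeR adjusted p = 0.103). Sp100 (ENSMUSG00000026222, chr1:85649988-85709998, plus strand) stood at 161, 188 and 203 CPM in KO replicates 1 to 3, against 336, 426 and 266 CPM in WT replicates 1 to 3. WT replicate 2 was again on top, and the log2 fold change was -0.90 (SE 0.18, edgeR adjusted p = 0.123). Ifi204 (ENSMUSG00000073489, chr1:173747293-173766943, minus strand) stood at 191, 192 and 264 CPM in KO replicates 1 to 3, against 397, 513 and 296 CPM in WT replicates 1 to 3. The groups did not overlap, and the log2 fold change was -0.90 (SE 0.21, edgeR adjusted p = 0.16). Ifi203 had a log2 fold change of -0.65, and of -0.42 without WT replicate 2, with KO replicate 3 above WT replicate 3. Other genes hold 20% of the 50-base windows of Ifi204, with 14.8% in its relative Ifi211, and 12.4% of those of Ifi203, with 8.85% in Ifi203-ps, so their counts are uncertain.

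Schlafen proteins are named for their effect on thymocyte growth in mice, and Samd9l restrains protein synthesis and poxviruses. Slfn8 (ENSMUSG00000035208, chr11:83002158-83020810, minus strand) stood at 101, 117 and 136 CPM in KO replicates 1 to 3, against 216, 226 and 154 CPM in WT replicates 1 to 3. Its log2 fold change was -0.76 (SE 0.17, edgeR adjusted p = 0.148), and 14.6% of its 50-base windows are in other genes, most of them in Slfn10-ps. Slfn5 (ENSMUSG00000054404, chr11:82951349-82964840, plus strand) stood at 279, 288 and 281 CPM in KO replicates 1 to 3, against 481, 425 and 345 CPM in WT replicates 1 to 3. The 3 KO libraries were almost level, and the log2 fold change was -0.56 (SE 0.14, edgeR adjusted p = 0.179), though 8.84% of its exon bases overlap Slfn5os. Samd9l (ENSMUSG00000047735, chr6:3372257-3399572, minus strand) stood at 108, 138 and 131 CPM in KO replicates 1 to 3, against 207, 239 and 146 CPM in WT replicates 1 to 3. KO replicate 2 came close to WT replicate 3 without passing it, and the log2 fold change was -0.65 (SE 0.18, edgeR adjusted p = 0.22).

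The 10 other induced genes had 9 with a KO mean below the WT mean, and 0 passed in edgeR. Hsh2d, an adaptor protein of lymphocytes and other blood cells, had the largest difference of all members. Hsh2d (ENSMUSG00000062007, chr8:72189638-72201527, plus strand) stood at 6.08, 7.67 and 6.95 CPM in KO replicates 1 to 3, against 18, 21.6 and 12.7 CPM in WT replicates 1 to 3. It was also the least abundant member, the groups did not overlap, and the log2 fold change was -1.33 (SE 0.22, edgeR adjusted p = 0.102). Helz2, a helicase that acts with nuclear receptors, stood at 166, 195 and 218 CPM in KO replicates 1 to 3, against 366, 392 and 312 CPM in WT replicates 1 to 3 (ENSMUSG00000027580, chr2:181227615-181242027, minus strand). All 3 KO libraries lay below WT, and the log2 fold change was -0.89 (SE 0.14, edgeR adjusted p = 0.102). Epsti1 (ENSMUSG00000022014, chr14:77904239-78002657, plus strand) stood at 97.7, 100 and 108 CPM in KO replicates 1 to 3, against 171, 239 and 152 CPM in WT replicates 1 to 3. The KO libraries were close together under all WT libraries, and the log2 fold change was -0.88 (SE 0.17, edgeR adjusted p = 0.112).

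The remaining members of this group also had lower means in KO. Ifi44 had a log2 fold change of -1.21, Xaf1, which binds the apoptosis inhibitor XIAP, of -0.77 and Ifi35 of -0.71, which was -0.45 without WT replicate 2. Lgals3bp, a secreted protein that binds galectins, had -0.95 and the torsin ATPase gene Tor3a -0.82. Rnf213, a large ubiquitin ligase whose variants are linked to moyamoya vessel disease in humans, had -0.71, with KO replicate 3 above WT replicate 3. Of the exon bases of Ifi35, 16.8% overlap Gm11626.

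Ifi27 went against the other 39. It encodes a small hydrophobic protein that was named for its induction by interferon alpha. Ifi27 (ENSMUSG00000064215, chr12:103434211-103440239, plus strand) stood at 175, 150 and 126 CPM in KO replicates 1 to 3, against 79, 70.1 and 117 CPM in WT replicates 1 to 3. All KO libraries were above all WT libraries, WT replicate 3 was the highest WT library, and the log2 fold change was 0.76 (SE 0.20, edgeR adjusted p = 0.201). Ifi27 shared no 50-base window with another gene.

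**Figure D3:**
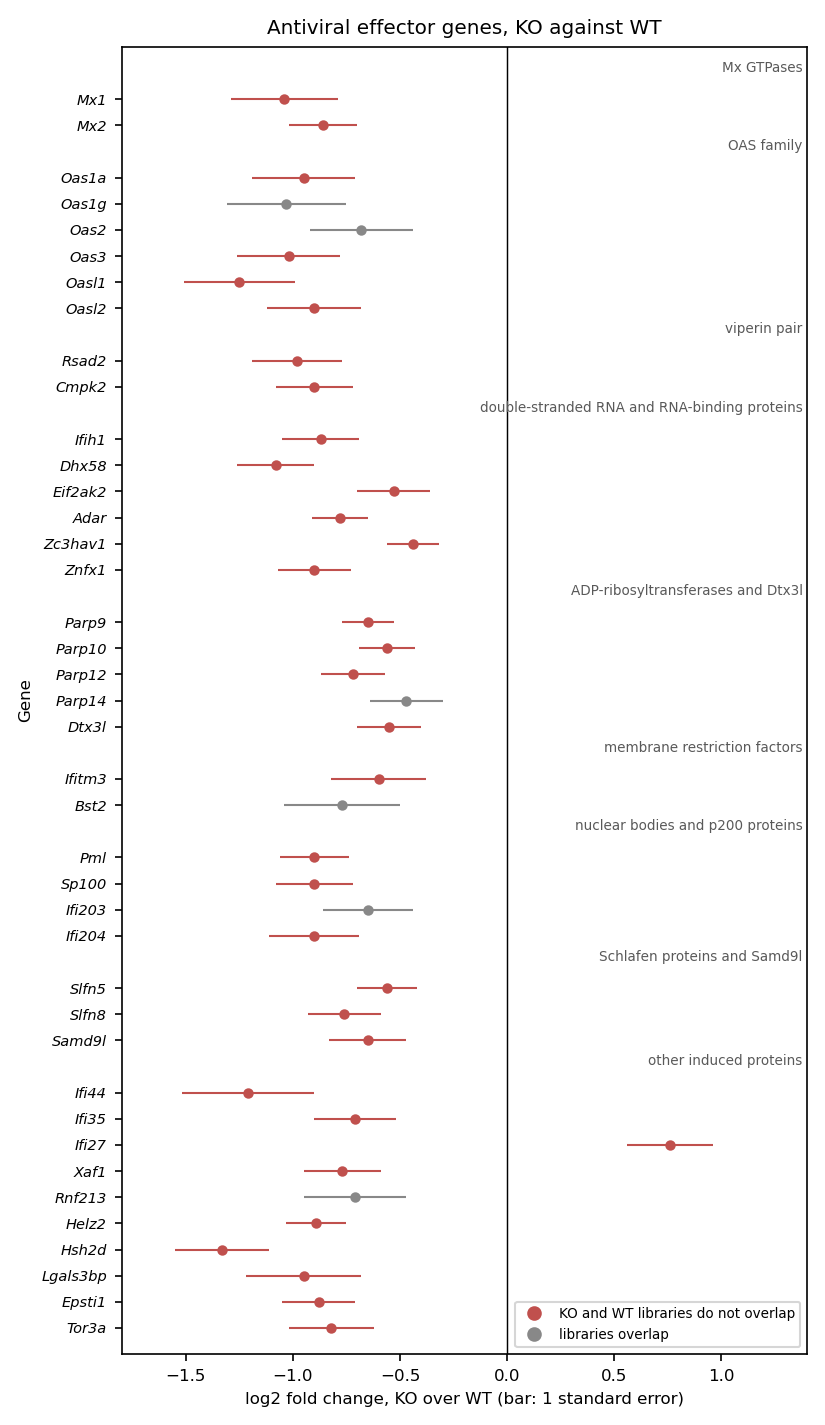
The log2 fold change of each member, KO over WT, with a bar of 1 standard error, in role groups. Red points mark members whose KO and WT libraries did not overlap and grey points those that did. All points except Ifi27 lie between -1.33 and -0.44.

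Levels per length were compared as CPM per kilobase of exon. Ifitm3 was highest, with a mean of 1108 in KO and 1676 in WT, followed by Bst2 with 283 in KO and 483 in WT and Lgals3bp with 165 in KO and 319 in WT. Hsh2d was lowest, with 3.78 in KO and 9.56 in WT. Ifi27, the exception, had 102 in KO and 60.5 in WT. Ifitm3 at the top had a log2 fold change of -0.60 and Hsh2d at the bottom of -1.33. Lgals3bp near the top had -0.95, and Ifih1, near the bottom with 10.7 in KO and 19.6 in WT, had -0.87. A relation between level and difference over the members was not tested. The members lie on 14 chromosomes. Neighbours within 100000 bases were Oas1a, Oas1g, Oas3 and Oas2 on chromosome 5, Oasl1 and Oasl2 on the same chromosome, Parp14, Dtx3l and Parp9 on chromosome 16, Mx1 and Mx2 on chromosome 16, Rsad2 and Cmpk2 on chromosome 12, and Slfn5 and Slfn8 on chromosome 11. Members of a cluster can share sequence or regulation and are not independent observations.

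Marker transcripts of several leukocyte types also had lower mean levels in KO. The 6 pan-leukocyte markers Ptprc, Cd53, Cd52, Laptm5, Coro1a and Lcp1 all had a lower mean in KO, and 3 of them had an unadjusted p under 0.05. Of all tested genes 48.8% had a lower mean, and at an unadjusted p under 0.05 there were 6.08% lower and 5.23% higher. These shares are the background for every marker list below. Their summed level was 2661, 3034 and 2998 CPM in KO replicates 1 to 3, against 3596, 4001 and 3226 CPM in WT replicates 1 to 3, with no overlap. Of 11 T cell markers 11 had a lower mean and 10 an unadjusted p under 0.05, and they summed to 200 to 245 CPM in KO and 323 to 415 CPM in WT. Of 8 natural killer cell markers 8 had a lower mean and 7 an unadjusted p under 0.05, with sums of 85.1 to 140 CPM in KO and 175 to 268 CPM in WT, also without overlap. Of 8 conventional dendritic cell markers 8 had a lower mean and 5 an unadjusted p under 0.05, whereas 7 of 7 neutrophil markers and 6 of 7 B cell markers had a higher mean. Of the neutrophil markers 2, S100a8 and Retnlg, were higher at an unadjusted p under 0.05, and of the B cell markers 0. Of 10 macrophage markers 7 had a lower mean, and at an unadjusted p under 0.05 there were 1 lower and 1 higher, Mrc1. Their sums of 3957 to 5014 CPM in KO and 4154 to 6660 CPM in WT overlapped. Of 10 monocyte markers 7 had a lower mean, and at an unadjusted p under 0.05 there were 5 lower and 1 higher. They summed to 4757 to 5170 CPM in KO and 4667 to 6071 CPM in WT. Most of these sums was Fn1, with a mean of 3551 CPM in KO and 3187 CPM in WT. Of 9 plasmacytoid dendritic cell markers, cells that make much type I interferon, 7 had a lower mean and 2 an unadjusted p under 0.05. The 2 were Irf8, which is also among the interferon pathway genes below, and the member Bst2. The list summed to 541 to 693 CPM in KO and 758 to 1161 CPM in WT. Of these sums Bst2 itself gave 200 to 317 CPM in KO and 304 to 636 CPM in WT. No marker of these lists was at 0 in all libraries.

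The ratio of the members' summed CPM to that of the leukocyte markers was 2.12, 2.06 and 2.51 in KO replicates 1 to 3, against 3.06, 3.30 and 2.66 in WT replicates 1 to 3. The ratios did not overlap. They hold for the pan-leukocyte markers alone, and ratios to the markers of single leukocyte types were not tested. The median log2 fold change was -0.84 for the members and -0.32 for the pan-leukocyte markers. Among single leukocyte types it ran from -1 for natural killer cell markers and -0.68 for T cell markers to 0.28 for neutrophil markers. With the mean log2 CPM of the leukocyte markers as a covariate, a fit added after seeing the data, the members' median log2 fold change was -0.23 and 31 of 40 had a negative one, beside 49.5% of all genes. In that fit 1 member, Helz2, had an unadjusted p under 0.05, beside 1.65% of all genes lower. The leukocyte score separated the genotypes by itself, so in 6 libraries leukocyte content and genotype cannot be told apart.

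White adipocyte markers ran the other way. All 10 had a higher mean in KO, 5 of them with an unadjusted p under 0.05, beside 5.23% of all tested genes. They summed to 2507, 1510 and 1711 CPM in KO replicates 1 to 3, against 356, 357 and 1566 CPM in WT replicates 1 to 3. WT replicate 3, the WT library with the lowest antiviral transcripts, was in the range of the KO libraries by this sum. The markers' mean log2 CPM was 6.5, 5.84 and 5.61 in the KO libraries, against 3.3, 3.67 and 5.59 in the WT libraries. This score separated the genotypes only narrowly, by 5.61 in KO replicate 3 against 5.59 in WT replicate 3, and the sums overlapped. In 6 libraries, telling adipocyte content from genotype therefore rests on WT replicate 3 alone. When the mean log2 CPM of these markers entered the fit as a covariate, the members' median was -0.36, 39 had a negative log2 fold change, beside 48.5% of all genes, and 9 had an unadjusted p under 0.05, beside 2.81% of all genes lower. Those 9 included Hsh2d (-0.80, SE 0.27), Pml (-0.71, SE 0.25) and Dhx58 (-0.60, SE 0.21). Smooth muscle markers were also higher in KO, for 8 of 8, with sums of 1699 to 2675 CPM in KO and 948 to 1453 CPM in WT. The 9 transcripts of the mitochondrial genome all had a higher mean in KO as well. Of them 8 had an unadjusted p under 0.05, beside 5.23% of all tested genes higher. They summed to 49890, 23280 and 22200 CPM in KO replicates 1 to 3, against 16760, 18420 and 14860 CPM in WT replicates 1 to 3, so that KO replicate 1, the lowest library for 28 members, stood apart. The part of smooth muscle content and of mitochondrial transcripts in the members' difference was not tested.

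**Figure D4:**
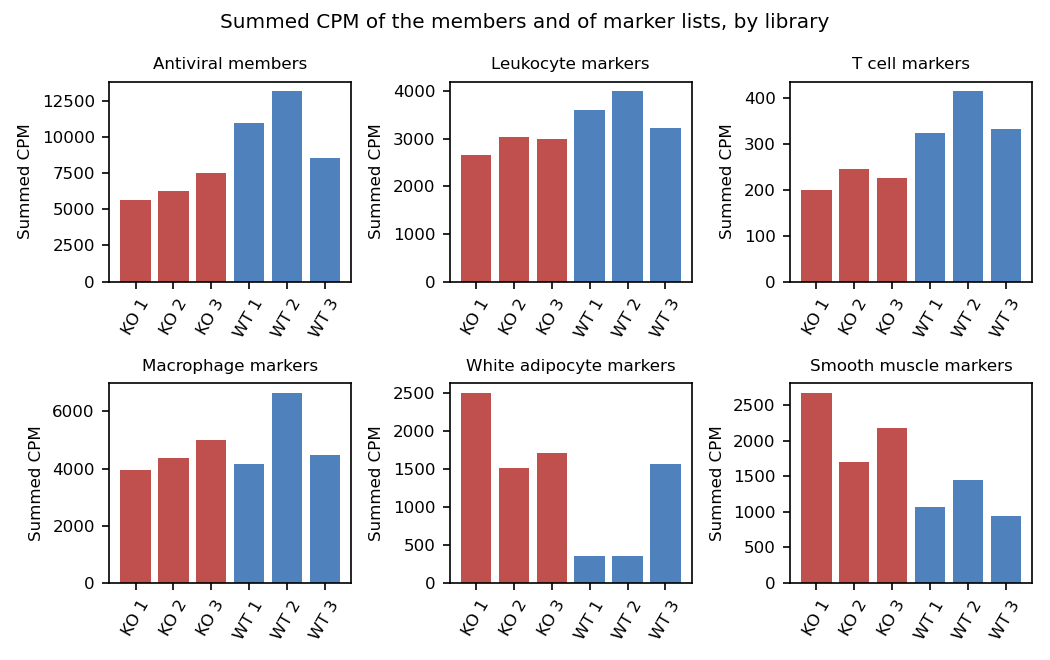
Summed CPM, from 0, of the 40 members and of 5 marker lists in each library, KO bars left of WT bars. The members and the leukocyte and T cell markers are lower in each KO library than in each WT library, macrophage markers overlap, and white adipocyte markers are low in WT replicates 1 and 2 alone.

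Other genes of the interferon pathway were examined by lists of their roles. Of 45 listed genes 36 were tested, of which 31 had a KO mean below the WT mean, beside 48.8% of all tested genes. At an unadjusted p under 0.05 there were 24 lower, beside 6.08% of all tested genes, and 0 higher, beside 5.23%. Of the 36, 0 passed in edgeR. Their median log2 fold change was -0.44. The interferons themselves were hardly detected. Ifnb1, which encodes interferon beta, had 0 counts in each KO library and 2, 2 and 5 counts in WT replicates 1 to 3, and Ifna4 had 10, 2 and 0 counts in KO replicates 1 to 3 and 0 in each WT library. Both were too low to be tested. Ifng, interferon gamma, stood at 1.49, 1.18 and 1.96 CPM in the KO libraries and 2.61, 3.27 and 1.96 CPM in the WT libraries. KO replicate 3 and WT replicate 3 were level, and its log2 fold change was -0.75 (SE 0.33, edgeR adjusted p = 0.436).

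The 7 receptor and kinase genes had a median log2 fold change of -0.17. Of them 2, Tyk2 and Ifngr1, had an unadjusted p under 0.05 as lower, beside 6.08% of all tested genes. Both were lower without overlap, beside 9.01% of all tested genes. The subunits of the type I receptor, Ifnar1 at -0.04 (SE 0.13) and Ifnar2 at -0.17 (SE 0.14), were chosen for naming after their values were seen. The receptor subunit of interferon gamma Ifngr1 had -0.26 (SE 0.11, edgeR adjusted p = 0.434) and the kinase gene Tyk2 -0.38 (SE 0.11, edgeR adjusted p = 0.242). Tyk2 stood at 80.7, 87.8 and 86.6 CPM in the KO libraries and 97.8, 118 and 117 CPM in the WT libraries.

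Among 7 transcription factors 6 had a lower mean and 5 an unadjusted p under 0.05, beside 6.08% of all tested genes lower. Irf7, which amplifies interferon production and is itself interferon-induced, stood at 240, 272 and 475 CPM in KO replicates 1 to 3, against 728, 1130 and 557 CPM in WT replicates 1 to 3. It had the largest difference of the list, without overlap, and a log2 fold change of -1.29 (SE 0.31, edgeR adjusted p = 0.168). Stat2 stood at 177, 180 and 265 CPM in the KO libraries and 349, 438 and 327 CPM in the WT libraries. Here too all KO libraries lay below WT, with a log2 fold change of -0.84 (SE 0.19, edgeR adjusted p = 0.146). Irf9 had -0.42 (SE 0.13, edgeR adjusted p = 0.275), also without overlap of the genotypes.

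Of 10 sensors and adaptors 7 had a lower mean. Each of these 7 had an unadjusted p under 0.05, beside 6.08% of all tested genes lower. Tlr9, the endosomal sensor of DNA, stood at 32.9, 61.3 and 45.8 CPM in the KO libraries and 102, 114 and 88.1 CPM in the WT libraries. Its log2 fold change was -1.12 (SE 0.21, edgeR adjusted p = 0.104). Zbp1, which senses nucleic acids in the left-handed form, had a log2 fold change of -1.01 (SE 0.21, edgeR adjusted p = 0.124). Of the feedback inhibitors, Usp18, which removes Isg15 from proteins and dampens receptor signalling, stood at 65.1, 52.7 and 72.7 CPM in KO replicates 1 to 3, against 139, 176 and 94.6 CPM in WT replicates 1 to 3. The groups did not overlap, and the log2 fold change was -1.10 (SE 0.22, edgeR adjusted p = 0.119). Socs1, an inhibitor of the Janus kinases, had -0.62 (SE 0.19, edgeR adjusted p = 0.253).

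Of the 8 partners of the members, among them other induced genes, 8 had a lower mean. Of these 7 had an unadjusted p under 0.05, beside 6.08% of all tested genes lower. Uba7, the activating enzyme for Isg15, stood at 117, 129 and 129 CPM in the KO libraries and 217, 206 and 183 CPM in the WT libraries. The groups lay far apart, with a log2 fold change of -0.69 (SE 0.11, edgeR adjusted p = 0.102). Ifit1 had a log2 fold change of -0.99 (SE 0.17, edgeR adjusted p = 0.102).

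**Figure D5:**
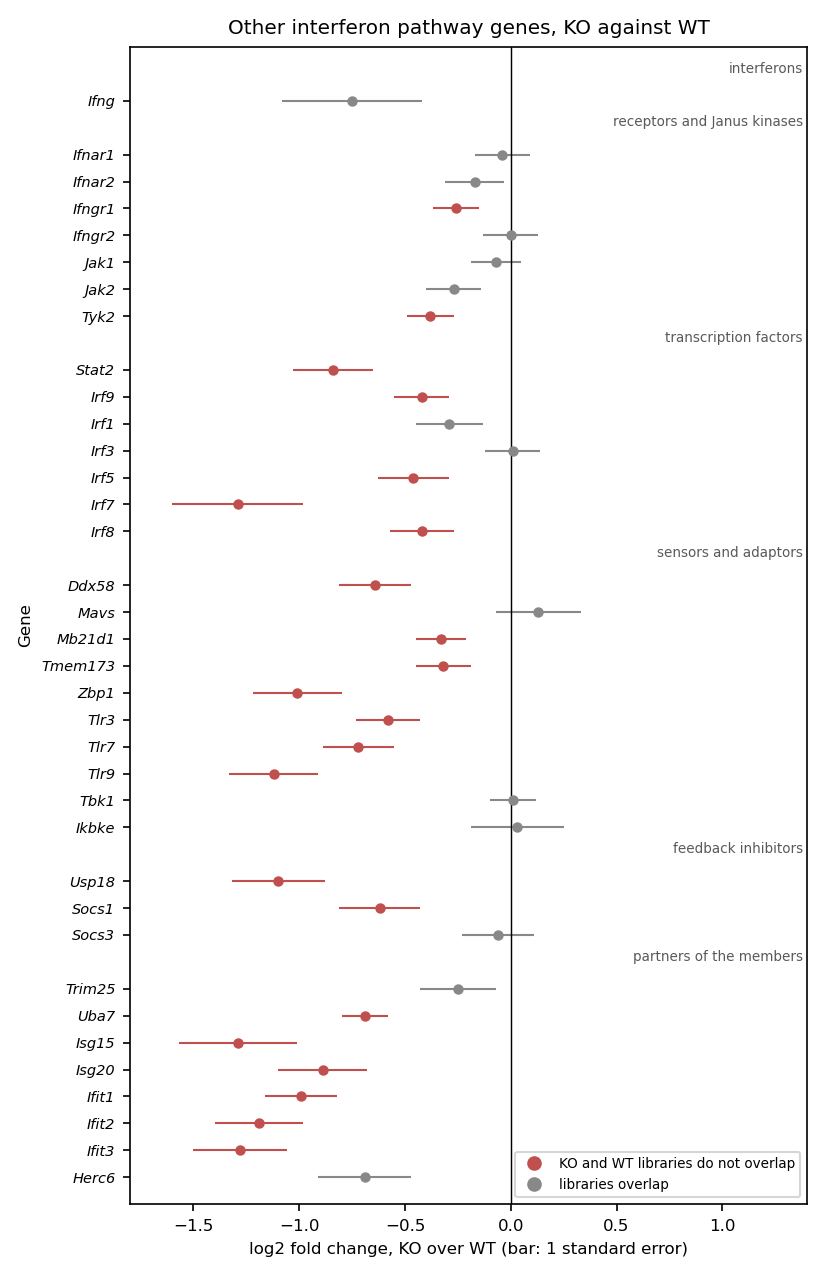
The log2 fold change of each tested gene of the other interferon pathway lists, KO over WT, with a bar of 1 standard error. Points of the receptor and kinase list lie between -0.38 and 0, and Irf7, Tlr9, Usp18 and Isg15 are among the lowest of their lists.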

How the data were processed

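RNA of mouse abdominal aorta was extracted with Trizol and columns, and libraries were made from poly-T selected RNA with random hexamers, per the labels' protocols. The authors deposited raw read counts for each of 54532 genes in 6 libraries. The submitters' processing notes name HISAT2 2.0.5, featureCounts 1.5.0-p3 and GRCm38. Not given in these sources are the strand setting, the annotation release and the treatment of reads with several matches, so reads of genes that overlap on opposite strands may be mixed.

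Tests used edgeR 4.0.16 under R 4.3.3 (filterByExpr, TMM scaling, quasi-likelihood test on genotype alone, Benjamini-Hochberg over 16237 genes). The standard error was the size of the log2 fold change divided by the square root of F. CPM were scaled by TMM, and log2 CPM had a prior count of 2. DESeq2 1.42.0, limma 3.58.1 (voom), other scalings, filters, covariates, a replicate block and left-out libraries were alternatives, the leukocyte covariate being chosen after seeing the data. The tests were tried on simulated data. No pair of libraries agreed within sampling noise (chi-square of 25.6 or more per degree of freedom). The members and lists were chosen with earlier results of these data known. In each role group the 3 members of smallest unadjusted p, and any higher in KO, are given with every library. In each pathway list the 2 of smallest p are named, with Irf7, Irf9 and Usp18, and 2 genes first listed there are not reported here. Positions, exon overlap and shared 50-base windows came from GENCODE M21 on GRCm38, and promoter sequences from RefSeq on GRCm38.p6. Protein identities of paralogous members were not analysed here. Figures were drawn with matplotlib 3.10.9.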

Additional observations from a re-analysis of the deposited data

How the results depend on the processing

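The number of genes called in all, 2 in the edgeR fit reported, was 644 with no filter on low counts, 468 with DESeq2, 1 with robust fitting and 0 with limma-voom, with the replicate block and with either covariate, and it ranged from 0 to 155 with each library left out in turn. The members called were 36 with no filter, 36 with DESeq2 and 0 to 22 with a library left out, the 22 without WT replicate 3, and for the other pathway genes the counts were 16, 14 and 0 to 8. With the white adipocyte covariate 9 members and 7 other pathway genes had an unadjusted p under 0.05 as lower, beside 2.81% of all genes. With the leukocyte covariate these counts were 1 and 2, beside 1.65%. The members' median was -0.36 and -0.23 under these covariates, and that of the other pathway genes was -0.29 and -0.19. Ifi27, at 0.76 in the edgeR fit reported, was at 0.22 (SE 0.20) with the white adipocyte covariate and 0.09 (SE 0.23) with the leukocyte covariate. The signs turned with the leukocyte covariate for Oas1a (0.02), Oas2 (0.07), Ifitm3 (0.07), Bst2 (0.33), Ifi203 (0.14), Samd9l (0.03), Ifi44 (0.05), Rnf213 (0.06), Ifnar1 (0.12) and Ifnar2 (0.21), and with the white adipocyte covariate for Ifnar1 (0.13) and Ifnar2 (0.03). With each library left out in turn Ifnar1 ranged from -0.13 to 0.05, turning without KO replicate 1 (0.05) or WT replicate 1 (0.02). The cause was not tested. Under every other alternative 39 members kept a lower mean, and the median lay between -0.97 and -0.66. Other scalings moved the median log2 fold change of all genes to at most 0.04.

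Samples that share a replicate number showed no sign of deviating together (correlations of -0.101, -0.0622 and -0.12, with 0 of 6 libraries closest to their own number). With 3 libraries per genotype these values cannot exclude pairing by number. The replicate block gave 0 calls over all genes and 0 among the members, with 39 lower at an unadjusted p under 0.05, beside 5.48% of all genes, and a median of -0.82. With a library left out 35 to 39 members were lower at an unadjusted p under 0.05, beside 4.2% to 7.19% of all genes.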

Other observations

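The members varied more within WT than within KO. For 31 of 40 the standard deviation of log2 CPM was larger among the WT libraries, beside 57.36% of all tested genes, with a median of 0.22 in KO and 0.36 in WT. Ifi27l2a, a relative of Ifi27 chosen after its values were seen, stood at 165, 150 and 246 CPM in KO replicates 1 to 3, against 257, 474 and 240 CPM in WT replicates 1 to 3. Its direction was that of the other members and opposite to Ifi27, though KO replicate 3 lay above WT replicate 3, and its log2 fold change was -0.79 (edgeR adjusted p = 0.323).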
